A study of Mus musculus with 6 samples.

Results

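The 8 genes Bach2, Pou2af1, Pou2f1, Pou2f2, Mef2c, Cd40, Cd80 and Cd86 were grouped as regulators of later B cell stages. They were examined for chromatin marks and Pax5 binding in pre-B cells, and whether they also act at that stage was not measured. They were chosen by name, 8 of the 22359 protein-coding genes of GENCODE M1, and each was read over its gene body plus 20 kb on each side, its window. The 8 windows were 57.3 kb (Cd40) to 387 kb (Bach2) long and summed to 1151 kb.

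Chromatin immunoprecipitation with sequencing (ChIP-seq), which recovers the DNA bound by a protein or carrying a histone mark, was performed on RAG-/- µ+ pre-B cells from the bone marrow of C57BL/6 mice of both sexes, 6 to 14 weeks old. RAG-/- denotes the loss of the recombinase that cuts antigen receptor genes (Rag1 in the study's methods), and µ+ a rearranged IgM transgene, a human heavy chain gene in the study's methods, that carries the cells to the pre-B stage. These cells therefore resembled pre-B cells with unrearranged light chain loci, every library carried both alterations, and mice were pooled. The series held 6 samples, 3 ChIP libraries (H3K27ac, H3K4me3 and Pax5) with a deposited list each and 3 input controls, whose signal was not analysed here.

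Each list came from 1 library, so no difference below has a replicate error and no test was made. The H3K27ac list held 69345 peaks, the Pax5 list 15445 peaks, and the H3K4me3 list 25-bp bins that were joined across gaps of up to 100 bp into 17979 regions. Coordinates are mm9. Read depth was not given by the lists, and a gene without a listed peak is a gene where none was called. In pooled cells, a mark carried by few cells and a weak mark carried by all cannot be told apart. The score of a peak is printed as deposited. Its scale is not named, so scores are compared only within a list, by the share of the list that scored as high. The 5 B lineage markers Cd79a, Cd79b, Blnk, Vpreb1 and Igll1 all had H3K27ac and Pax5 at a start, where 3 of them also had H3K4me3. None of the 4 T cell markers had a listed peak of any kind there. H3K27ac was listed at the starts of 3 of 4 myeloid markers (Csf1r, Lyz2 and Mpo, not Elane) and of 2 of 3 erythroid markers (Klf1 and Epor, not Gata1). H3K4me3 was listed at 2 of the 4 myeloid markers (Csf1r and Lyz2) and 2 of the 3 erythroid markers (Klf1 and Epor). Pax5 was listed at none of these 7. Over all protein-coding genes, H3K27ac was listed at a start of 48.3%, H3K4me3 of 52.6% and Pax5 of 37.4%. Mef2c, Cd40, Cd80 and Cd86 are also used by myeloid cells, and whether such cells contributed to the signal at the 8 genes was not tested.

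H3K4me3 marks active or poised starts of transcription, H3K27ac marks active starts and enhancers, and Pax5 is the transcription factor that holds cells in the B lineage. Bach2, a repressor of the plasma cell programme, and the octamer factors Oct-1 (Pou2f1) and Oct-2 (Pou2f2) with their coactivator OCA-B (Pou2af1) act in germinal centre responses, as does the MADS-box factor Mef2c. Cd40 is the receptor through which T cell help reaches the B cell, and Cd80 and Cd86 are the ligands with which an activated B cell engages Cd28 on T cells.

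All 8 genes carried H3K27ac within 1000 bp of an annotated start, against 48.3% of all protein-coding genes. H3K4me3 was listed at a start of 7 of the 8, all but Cd80, against 52.6% of genes. Pax5 was listed at a start of 6 of the 8, all but Cd80 and Cd86, against 37.4% of genes. These 6, the 5 nuclear factors and Cd40, had all 3 lists at a start, as did 34.3% of genes. These are calls of presence, whatever the score. The Pax5 peaks at the starts of Pou2f2 (191), Mef2c (188) and Cd40 (111 and 145) scored below the list's median of 207. In the higher-scoring 50% of the list, Pou2f2, Mef2c and Cd40 had no Pax5 at a start, like Cd80 and Cd86. The Mef2c peak begins inside an assembly gap, and the effect of the gap on its score was not tested. Cd86 had both histone marks without Pax5, a combination found at 11.0% of genes. Cd80 had H3K27ac alone, a combination found at 2.60%. Among the 10118 genes with both histone marks at a start, 75.8% also had Pax5, and 6 of the 7 genes described here that had both marks did so. Over the whole windows every one of the 8 had at least 1 entry of each list, where 68.3% of all genes had H3K27ac, 65.8% had H3K4me3 and 58.2% had Pax5. A longer window is likelier to hold an entry, and the shares of all genes were not matched for window length. A window can also reach into a neighbouring gene, and some such entries are named below.

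**Figure D1:**
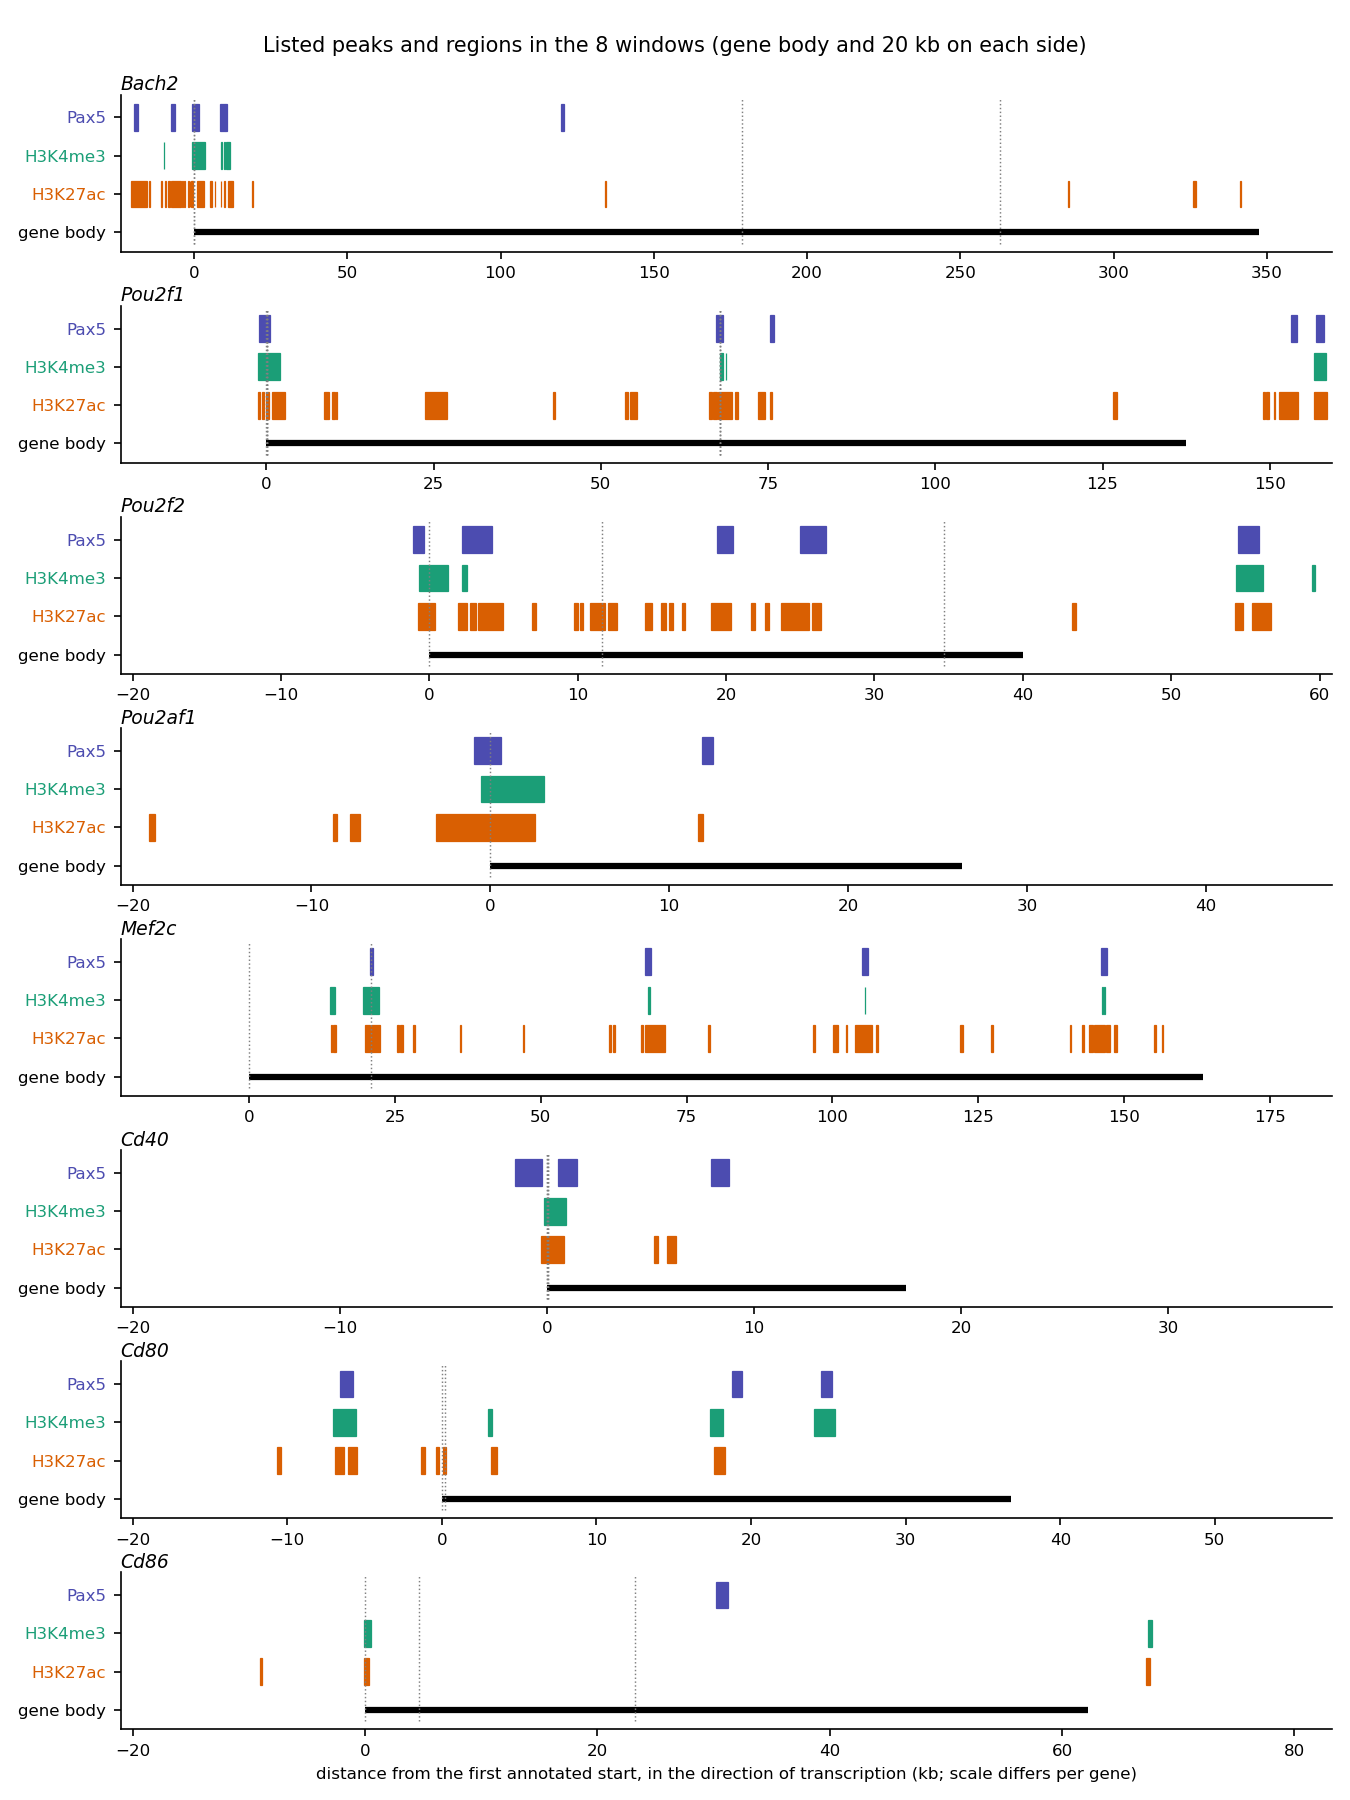
Listed H3K27ac peaks (orange), H3K4me3 regions (green) and Pax5 peaks (blue) in each of the 8 windows, drawn to scale against the distance in kb from the gene's first annotated start. The black bar is the gene body and dotted lines are annotated starts of coding transcripts. Cd80 shows H3K27ac but neither H3K4me3 nor Pax5 at its start, and Mef2c shows no mark at its first start and all 3 at the next, 20.9 kb downstream.

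The sequence before a start differed between the genes and is shown first because CG content, which is high at many broadly used starts, varied widely among the 8. The lines give the 250 bases before each start (171 for the downstream start of Mef2c, where an assembly gap of 100 bases begins 172 bases upstream), 5′ to 3′ on the strand of the gene, with each CG dinucleotide in capitals. Both of these starts are given for Mef2c, the first annotated one and then the downstream one.
Bach2, chr4:32325529-32325778 (+ strand): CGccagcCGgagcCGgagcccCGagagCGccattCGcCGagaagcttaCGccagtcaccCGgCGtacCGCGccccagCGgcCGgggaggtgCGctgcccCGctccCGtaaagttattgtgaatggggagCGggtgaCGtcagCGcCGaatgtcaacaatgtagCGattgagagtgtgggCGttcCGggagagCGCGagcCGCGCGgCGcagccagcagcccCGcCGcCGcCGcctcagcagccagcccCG
Mef2c, chr13:83642783-83643032 (+ strand): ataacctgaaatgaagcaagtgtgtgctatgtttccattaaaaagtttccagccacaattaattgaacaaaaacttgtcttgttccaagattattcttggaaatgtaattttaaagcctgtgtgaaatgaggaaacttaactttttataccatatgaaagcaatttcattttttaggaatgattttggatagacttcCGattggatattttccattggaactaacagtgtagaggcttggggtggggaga
Mef2c, chr13:83663805-83663975 (+ strand): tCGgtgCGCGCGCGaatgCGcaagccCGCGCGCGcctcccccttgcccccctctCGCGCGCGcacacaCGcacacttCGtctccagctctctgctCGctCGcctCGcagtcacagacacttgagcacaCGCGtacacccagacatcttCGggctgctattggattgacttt
Pou2af1, chr9:51021545-51021794 (+ strand): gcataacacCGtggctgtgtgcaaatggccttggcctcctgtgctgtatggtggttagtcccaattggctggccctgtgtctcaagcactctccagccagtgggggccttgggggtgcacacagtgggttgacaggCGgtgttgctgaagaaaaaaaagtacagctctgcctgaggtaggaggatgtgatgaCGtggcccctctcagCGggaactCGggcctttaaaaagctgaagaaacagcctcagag
Cd80, chr16:38458763-38459012 (+ strand): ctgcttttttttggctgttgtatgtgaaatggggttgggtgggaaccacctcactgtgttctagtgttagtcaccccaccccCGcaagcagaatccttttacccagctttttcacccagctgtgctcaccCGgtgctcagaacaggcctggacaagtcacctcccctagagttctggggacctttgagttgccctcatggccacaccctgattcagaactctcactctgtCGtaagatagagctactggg
Cd86, chr16:36666164-36666413 (- strand): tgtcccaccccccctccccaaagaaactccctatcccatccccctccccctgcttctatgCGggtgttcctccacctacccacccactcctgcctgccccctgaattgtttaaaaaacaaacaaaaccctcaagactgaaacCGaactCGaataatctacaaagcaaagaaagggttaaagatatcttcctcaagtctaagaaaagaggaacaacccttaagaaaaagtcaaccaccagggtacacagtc
The Bach2 sequence holds 35 CG dinucleotides and the downstream Mef2c sequence 22, against 1 at the first Mef2c start, 5 at Pou2af1 and 3 each at Cd80 and Cd86. Over 500 bp on each side of the start, the observed to expected CG ratio was 0.981 at Bach2 and 0.985 at Pou2f1, against a median of 0.554 over the first starts of 22347 genes. It was 0.384 at Pou2f2, 0.357 at Cd40, 0.318 at Cd86, 0.311 at Pou2af1 and 0.214 at Cd80. A start poor in CG could still be fully marked in these cells, as Pou2af1 and Cd40 were.

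Bach2 had 25 H3K27ac peaks, 5 H3K4me3 regions and 6 Pax5 peaks in its window, and nearly all lay around its first starts. Of the 25 H3K27ac peaks, 21 lay within 20 kb of the first start, 13 upstream and 8 downstream, although the gene body is 347 kb long. The H3K4me3 region at the start was 4350 bp wide, a width reached by 0.745% of the 11681 regions at coding starts (median 1350 bp). The region overlapped 2 H3K27ac peaks, and the start lay between them, with one of score 20.3 ending 375 bp upstream and one of score 35.1 beginning 850 bp downstream. The Pax5 peak there scored 837, a score reached by 6.44% of the Pax5 list. Upstream, H3K27ac peaks of score 35.0 were listed 18.0 kb and 5.69 kb from the start, the first of them 5203 bp wide. Pax5 peaks of score 219, 18.9 kb upstream, and 349, 6.71 kb upstream, overlapped H3K27ac in the same places. Downstream, Pax5 peaks of score 121, at 9.32 kb, and 187, at 10.5 kb, each overlapped both H3K27ac and H3K4me3. Of the 32-base stretches in the peak of score 187, 11.1% stood elsewhere in the genome. The annotated starts 179 kb and 263 kb into the gene had no entry of any list, and the Pax5 peak 120 kb into the gene (score 123) overlapped neither mark. Of the 25 H3K27ac peaks, 3 lay at the starts of other annotated genes, D130062J21Rik and Gm11932.

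Pou2f1, which encodes the broadly expressed octamer factor, had 24 H3K27ac peaks, 4 H3K4me3 regions and 5 Pax5 peaks. Both of its groups of starts were fully marked. At the first start an H3K4me3 region of 3275 bp (a width reached by 2.67% of start regions) carried the highest Pax5 score among the 8 genes, 941, reached by 4.95% of the list. This start lies within 1000 bp of a start of Gm17444, so the signal cannot be assigned to one of them. At the second group, 67.7 kb downstream, the Pax5 peak scored 247, H3K27ac peaks scored 31.7 and 26.1, and the H3K4me3 regions were 350 bp and a single bin of 25 bp. The CG ratio at this second start was 0.176, against 0.985 at the first. An intronic H3K27ac peak 25.4 kb into the gene scored 42.2 over 3247 bp and overlapped neither other list. The highest H3K27ac score in the window, 50.9, lay 158 kb from the first start inside Cd247, a neighbouring gene of the T cell receptor complex. That peak overlapped Pax5 (136) and an H3K4me3 region of 1825 bp. Altogether 6 of the 24 H3K27ac peaks and 2 of the 5 Pax5 peaks overlapped the body of Cd247.

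Pou2f2, the octamer factor enriched in B cells, had the densest H3K27ac of the 8, 21 peaks or 26.2 per 100 kb of window, a density reached by 3.51% of all genes. Its first start had H3K27ac (21.9), an H3K4me3 region of 1950 bp and a Pax5 peak of score 191 centred 706 bp upstream. The start 11.6 kb downstream had H3K27ac alone (15.9 and 13.2), and the start 34.7 kb downstream had nothing listed. Within the introns the Pax5 peaks scored 188, 133 and 375, and each overlapped H3K27ac. The peak of score 375, 25.9 kb into the gene, held repeated sequence: 16.6% of its 32-base stretches stood elsewhere in the genome. The highest H3K27ac score in the window, 113, belonged to the start of the neighbour Zfp574, together with a Pax5 peak of score 241.

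Pou2af1, whose product OCA-B binds the octamer factors on DNA, had few entries, the strongest of them at its start. A single H3K27ac peak of 5527 bp covered its only start, with a score of 72.1 reached by 2.78% of the list. The H3K4me3 region there was 3500 bp wide, a width reached by 2.06% of start regions. The Pax5 peak at the start scored 889, reached by 5.67% of its list, and a second, 12.2 kb into the gene, scored 110, reached by 85.1%. The 4 other H3K27ac peaks scored 5.94 to 8.95, so the marks of Pou2af1 were concentrated at the start. Its counts of 5 H3K27ac peaks and 2 Pax5 peaks were reached by 34.2% and 31.3% of all genes. With 50 kb on each side these counts rose to 11 and 4.

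Mef2c had the most H3K27ac peaks, 29, all within the gene body, a count reached by 1.04% of all genes. Per 100 kb of its 204 kb window the density was 14.2, and 14.6% of genes were as dense. Its first annotated start had no entry of any list. The second start, 20.9 kb downstream, had H3K27ac peaks of score 70.8 and 35.1, an H3K4me3 region of 2825 bp and a Pax5 peak of score 188. That Pax5 peak begins inside the assembly gap of 100 bases upstream of this start. The H3K27ac peaks lie on either side of the gap. Reads cannot be placed in the gap, and its effect on these scores and widths was not tested. Further Pax5 peaks lay in the introns 68.4 kb (111), 106 kb (129) and 147 kb (238) from the first start. Each of the 4 Pax5 peaks overlapped both H3K27ac and H3K4me3. The intronic H3K4me3 entries beneath them were narrow, 425 bp at 68.5 kb, 50 bp at 106 kb, and 125 and 150 bp at 146 and 147 kb. The H3K27ac peaks at these places were broad, with 47.1 over 3433 bp, 61.8 over 2817 bp and 21.9 over 1902 bp. A wider intronic H3K4me3 region, 925 bp at 14.2 kb, lay between the 2 starts and overlapped H3K27ac (14.1 and 5.82) but no Pax5.

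**Figure D2:**
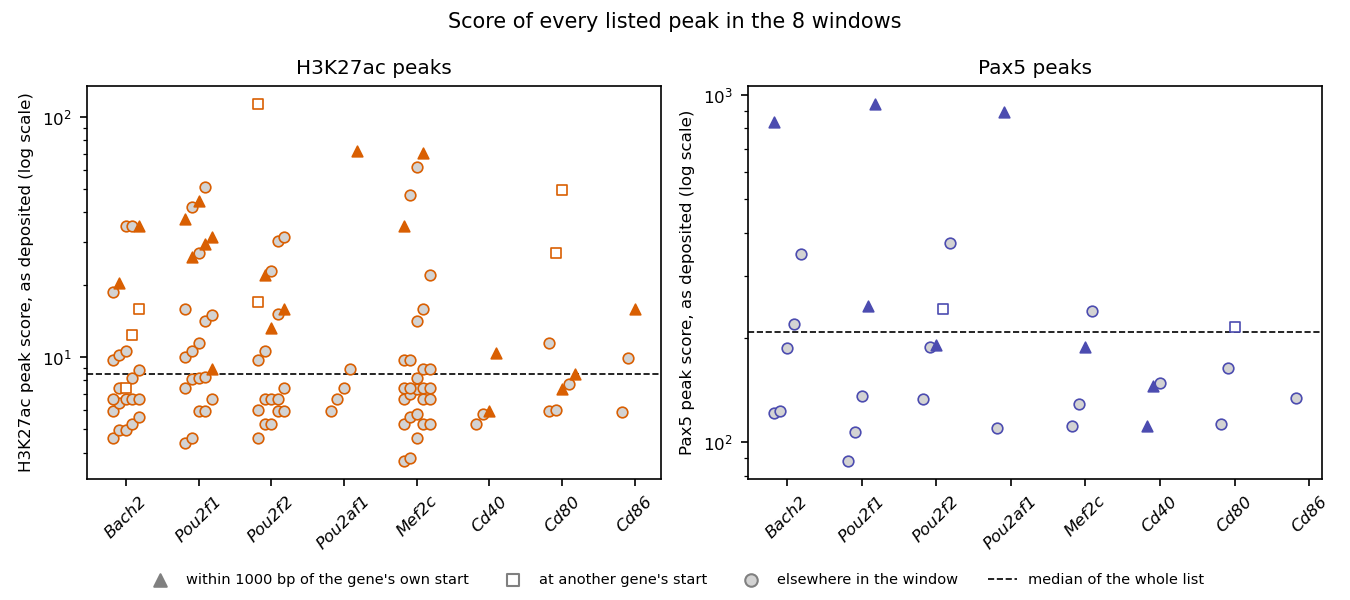
Score of every listed H3K27ac peak (left) and Pax5 peak (right) in the 8 windows, on a log scale, with 1 point for each peak. Triangles mark peaks within 1000 bp of the gene's own start, open squares peaks at another gene's start, circles all others, and the dashed line the median of the whole list (8.52 for H3K27ac, 207 for Pax5). The Pax5 peaks at the starts of Bach2 (837), Pou2f1 (941) and Pou2af1 (889) stand above all others, and all the peaks of Cd40 and Cd86 in the right panel lie below the median.

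Cd40 had a compact set of 4 H3K27ac peaks, 1 H3K4me3 region and 3 Pax5 peaks. The first start lay in the gap between H3K27ac peaks of score 5.94, ending 65 bp upstream, and 10.4, beginning 19 bp downstream. Such a gap was common, since 31.8% of the coding starts with H3K27ac nearby lay between 2 peaks. The H3K4me3 region was 1075 bp wide, and 67.9% of start regions were at least as wide. The Pax5 peaks stood to either side, centred 898 bp upstream (111) and 997 bp downstream (145) of the first start, and neither covered it. The third Pax5 peak (148), over an exon 8.34 kb downstream, overlapped neither mark. All 3 scored below the list's median of 207.

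Cd80 was the least marked at its start. The first start lay between H3K27ac peaks of score 7.38 (233 bp) and 8.52 (226 bp), scores reached by 62.8% and 50.1% of the list, with no H3K4me3 and no Pax5 within 1000 bp. The strongest entries of its window belonged to a neighbour: H3K27ac of 27.2 and 49.7, an H3K4me3 region of 1500 bp and Pax5 of 215 lay about 6.31 kb upstream, at the starts of Adprh and D930030I03Rik. Inside the gene, H3K4me3 regions were listed 3.14 kb (250 bp wide), 17.8 kb (850 bp) and 24.8 kb (1325 bp) from the first start. Pax5 peaks of score 113 and 163 were listed 19.1 kb and 24.9 kb from it, neither with H3K27ac.

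The wider of these intronic regions shared sequence with coding genes elsewhere, and they are uncertain for that reason. The region at 24.8 kb matched the transcript of Ckb, a creatine kinase gene on chromosome 12, at 91.9% identity over 1189 bp, and 21.3% of its 32-base stretches stood elsewhere in the genome. Its Pax5 peak matched the Ckb transcript at 92.9% over 764 bp. The region at 17.8 kb matched the transcript of Setd8 at 92.2% over 638 bp, with 18.2% of stretches found elsewhere. The H3K27ac peak that overlapped it (score 11.4) matched Setd8 at 93.0% over 717 bp, with 17.0% found elsewhere. The Pax5 peak at 19.1 kb had no such match, and 10.2% of its stretches stood elsewhere. Within 2 kb of the Ckb gene itself an H3K4me3 region of 525 bp was listed, with no H3K27ac and no Pax5. Within 2 kb of Setd8, 2 H3K4me3 regions and 8 H3K27ac peaks were listed, with no Pax5. The study's methods kept reads with up to 3 best positions, so a read from one copy could be placed on another. The part of such reads in these regions and peaks was not tested. The region at 3.14 kb had no stretch found elsewhere. Across the 8 windows the median share of such stretches was 0 for each list, and only 3 entries, all H3K27ac peaks in Pou2f1 or Pou2f2 introns, passed 50%.

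The 2 intronic Pax5 peaks of Cd80 were also the only ones of the 29 with the core letters GCNTGAC in the middle 300 bases, searched on both strands, and are shown for that reason. The core is in capitals, and the lower of the sequences is the one that resembles Ckb.
Cd80, chr16:38477976-38478275 (+ strand): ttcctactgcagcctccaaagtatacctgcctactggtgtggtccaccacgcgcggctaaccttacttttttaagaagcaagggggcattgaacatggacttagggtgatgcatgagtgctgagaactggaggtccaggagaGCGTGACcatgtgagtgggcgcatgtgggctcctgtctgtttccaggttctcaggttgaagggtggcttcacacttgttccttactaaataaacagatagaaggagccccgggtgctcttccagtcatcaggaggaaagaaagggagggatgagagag
Cd80, chr16:38483740-38484039 (+ strand): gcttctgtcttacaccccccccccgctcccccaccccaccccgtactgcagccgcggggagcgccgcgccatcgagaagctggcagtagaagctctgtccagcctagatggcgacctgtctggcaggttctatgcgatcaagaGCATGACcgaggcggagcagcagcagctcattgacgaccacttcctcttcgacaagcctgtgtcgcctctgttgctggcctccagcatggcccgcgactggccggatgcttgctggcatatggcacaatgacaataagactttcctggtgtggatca
This was 6.90% of the 29, against 18.4% of the whole Pax5 list. Over whole peaks the core stood in 10 of the 29 (34.5%), against 39.7% of the list. The other 8 lay away from the middle. The 5 in the highest-scoring peaks are given below with 20 bases on each side, on the strand that reads GCNTGAC. They lie 6.71 kb upstream of Bach2 (peak score 349), downstream of Pou2f2 at the start of Zfp574 (241), 147 kb into Mef2c (238), 18.9 kb upstream of Bach2 (219) and 3.22 kb into Pou2f2 (188).
Bach2, chr4:32318613-32318659 (- strand): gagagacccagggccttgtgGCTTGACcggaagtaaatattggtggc
Pou2f2, chr7:25861889-25861935 (- strand): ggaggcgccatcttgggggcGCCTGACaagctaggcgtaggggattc
Mef2c, chr13:83789145-83789191 (- strand): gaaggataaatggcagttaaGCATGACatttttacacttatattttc
Bach2, chr4:32307175-32307221 (+ strand): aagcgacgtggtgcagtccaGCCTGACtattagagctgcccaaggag
Pou2f2, chr7:25913656-25913702 (- strand): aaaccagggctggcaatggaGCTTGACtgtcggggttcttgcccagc
None of the strongest peaks, those at the starts of Bach2, Pou2f1 and Pou2af1, held these letters, which says only that the letters are not in these peaks. The middle 300 bases of the highest-scoring pair, Pou2f1 (941) and Pou2af1 (889), are shown for comparison, with no part in capitals.
Pou2f1, chr1:167932970-167933269 (- strand): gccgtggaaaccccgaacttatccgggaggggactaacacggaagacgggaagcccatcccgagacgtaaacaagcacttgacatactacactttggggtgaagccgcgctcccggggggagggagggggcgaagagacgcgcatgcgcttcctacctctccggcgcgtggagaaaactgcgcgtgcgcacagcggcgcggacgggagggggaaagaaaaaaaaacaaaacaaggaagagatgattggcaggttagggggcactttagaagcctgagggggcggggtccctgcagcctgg
Pou2af1, chr9:51021470-51021769 (+ strand): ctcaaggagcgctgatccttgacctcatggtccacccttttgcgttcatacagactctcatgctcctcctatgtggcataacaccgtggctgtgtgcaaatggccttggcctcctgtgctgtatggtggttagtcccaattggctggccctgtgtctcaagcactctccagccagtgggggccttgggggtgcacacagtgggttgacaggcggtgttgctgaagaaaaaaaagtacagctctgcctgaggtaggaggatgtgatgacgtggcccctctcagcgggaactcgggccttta

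The octamer ATGCAAAT, the sequence bound by the products of Pou2f1 and Pou2f2, and the core TGAGTCA, bound by Bach and AP-1 factors, were searched in the same way. Neither stood in the middle 300 bases of any of the 29 peaks, against 1.99% and 4.12% of the list. Over whole peaks the octamer stood in 2 of 29 (6.90%, against 5.44% of the list) and TGAGTCA in 3 of 29 (10.3%, against 13.8%). Of the octamers, 1 lay in Bach2 intron sequence and 2 lay in the Pax5 peak at the second group of Pou2f1 starts, shown here on the strand that reads ATGCAAAT.
Pou2f1, chr1:167865312-167865359 (+ strand): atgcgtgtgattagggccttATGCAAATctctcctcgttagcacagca
Pou2f1, chr1:167865435-167865482 (- strand): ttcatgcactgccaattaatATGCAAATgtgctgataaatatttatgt
These are matches of letters at the gene of an octamer-binding protein, and binding of that protein was not measured. From 250 bases before to 50 after the first start, none of the 8 genes held GCNTGAC, ATGCAAAT or TGAGTCA, which stood in 10.3%, 1.72% and 4.32% of all such promoters.

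Cd86 had the fewest entries in all, 3 H3K27ac peaks, 2 H3K4me3 regions and 1 Pax5 peak. This rank depended on the window. With 50 kb on each side Cd86 had 8, 4 and 3, against 5, 2 and 5 at Cd40. The first start of Cd86 was covered by an H3K27ac peak of score 15.8 and an H3K4me3 region of 650 bp, and 84.1% of start regions were at least as wide. The starts 4.62 kb and 23.3 kb downstream had no entry. The only Pax5 peak (134) lay in an intron 30.7 kb from the first start and overlapped neither mark. The other H3K27ac peaks lay 8.95 kb upstream of the first start (5.93) and 67.4 kb downstream of it, past the end of the gene (9.93). The 2 ligands thus differed from each other. Cd86 had the higher-scoring start with H3K4me3, and Cd80 had the more entries in its window, some of them at a neighbour's start.

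**Figure D3:**
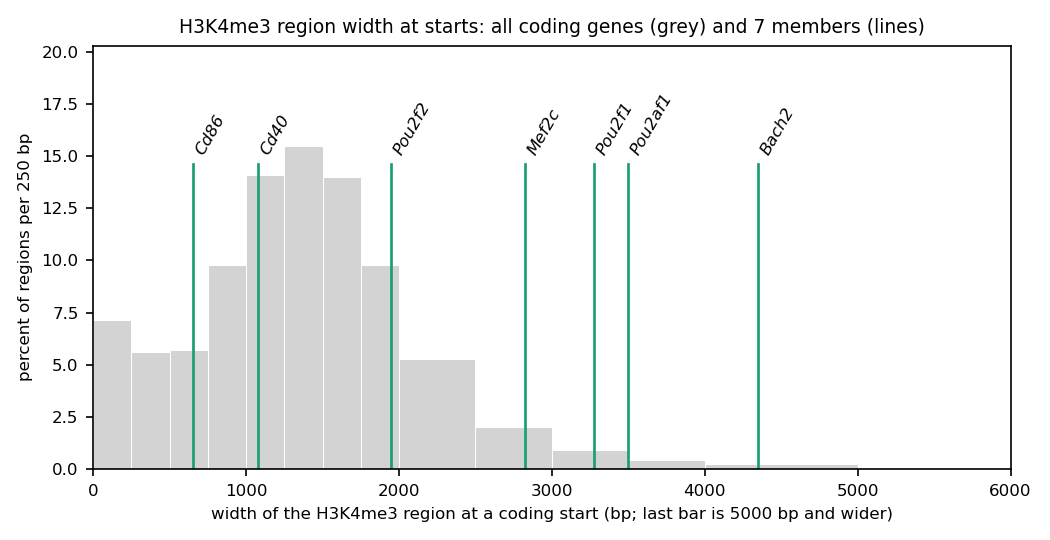
Width in bp of the widest H3K4me3 region at any start of each of 7 genes (green lines, Cd80 has none) over the distribution of the 11681 regions at coding starts (grey, percent of regions per 250 bp). Bach2 (4350 bp), Pou2af1 (3500 bp), Pou2f1 (3275 bp) and Mef2c (2825 bp) lie in the upper tail, and Cd40 (1075 bp) and Cd86 (650 bp) lie below the median of 1350 bp.

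By the widest region at a start, the 5 nuclear factors had 1950 to 4350 bp, widths reached by 20.1% of start regions at Pou2f2, 4.79% at Mef2c and fewer at the other 3. Cd40 and Cd86 had 1075 and 650 bp, below the median. The regions at the second group of Pou2f1 starts, 350 and 25 bp, were narrower than those of Cd40 and Cd86. These are single regions from 1 library, and no difference between kinds of gene was tested.

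Across the 8 windows there were 119 H3K27ac peaks, of which 19 lay at a start of the gene, 66 in introns, 5 over exons, 20 upstream and 9 downstream. Of these, 7 lay at the start of another gene only. H3K4me3 overlapped 31 of them and Pax5 35, shares close to those of the whole H3K27ac list (28.3% and 25.0%), and 75 overlapped neither. Of the 29 Pax5 peaks, 8 lay at a start and 14 in introns, 24 overlapped H3K27ac and 17 overlapped H3K4me3. Over the whole Pax5 list these overlaps were 79.3% and 61.0%. The 4 Pax5 peaks that overlapped no mark lay in Bach2, Cd40, Cd80 and Cd86. Of the 27 H3K4me3 regions, 24 overlapped H3K27ac and 19 overlapped Pax5, against 79.7% and 52.9% of the whole H3K4me3 list.

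Per 100 kb of window, H3K27ac density was 26.2 at Pou2f2, 14.2 at Mef2c, 13.5 at Pou2f1, 10.4 at Cd80, 7.53 at Pou2af1, 6.98 at Cd40, 6.45 at Bach2 and 2.94 at Cd86. The median of the 8 was 8.97, against 3.46 over all genes and 2.61 over the genome. Bach2 stood low in this order although its count of 25 was reached by only 1.61% of genes. Cd86 alone was below the median of all genes, and 52.6% of genes were as dense or denser. These densities count peaks of any width, those at neighbours' starts included. Without peaks at the start of another gene only, the median of the 8 was 7.67. The median of all genes was not computed in that way. By the share of the window covered, H3K27ac stood in another order. It covered 17.4% at Pou2f2, 10.7% at Pou2f1, 10.4% at Pou2af1, 9.76% at Mef2c, 4.95% at Bach2, 4.11% at Cd80, 2.93% at Cd40 and 0.956% at Cd86. Pax5 density was 0.978 (Cd86) to 6.25 (Pou2f2) per 100 kb, with a median of 2.91 against 1.17 over all genes. H3K4me3 density was 1.29 (Bach2) to 5.21 (Cd80), with a median of 2.10 against 1.58. None of the 4 Cd80 regions lay at its start. Of them, 1 lay at the Adprh start, and those 17.8 kb and 24.8 kb from the first start matched Setd8 and Ckb transcripts. Bach2, lowest in H3K4me3 density, had the widest start region of the 8, 4350 bp.

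**Figure D4:**
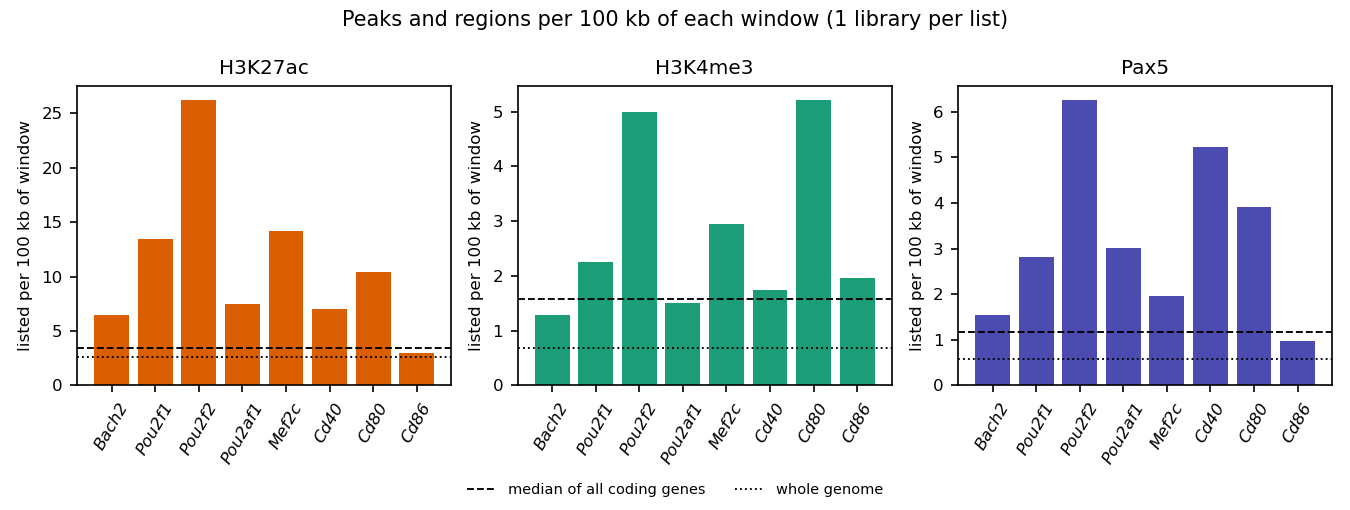
Number of listed H3K27ac peaks, H3K4me3 regions and Pax5 peaks per 100 kb of window for each of the 8 genes (bars), with the median of all protein-coding genes (dashed) and the whole-genome value (dotted). Pou2f2 is highest for H3K27ac (26.2) and Pax5 (6.25), and Cd86 is lowest for both (2.94 and 0.978).

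Genes of the same pathways were read in the same way, to be set against the shares of all genes at a start, 48.3% for H3K27ac, 52.6% for H3K4me3, 37.4% for Pax5 and 34.3% for all 3. Of 12 genes that carry the Cd40 signal into the cell (Traf adaptors, the kinase Map3k14, Birc2, Birc3 and NF-κB subunits), 12 had H3K27ac, 12 had H3K4me3 and 10 had Pax5 at a start, the exceptions for Pax5 being Traf1 and Birc2. Of 9 germinal centre and plasma cell genes, 8 had H3K27ac, 9 had H3K4me3, 6 had Pax5 and 5 had all 3. Prdm1, the plasma cell factor that Bach2 represses, had H3K4me3 and Pax5 at its start without H3K27ac. Of 12 paralogs and family members, 6 had H3K27ac, 7 had H3K4me3, 7 had Pax5 and 5 had all 3, near the shares of all genes for the histone marks and for all 3. Bach1, Mef2a and Mef2d had all 3 lists at a start, like Bach2 and Mef2c, while Mef2b had H3K4me3 and Pax5 alone and Pou2f3 had none. Among the relatives of Cd80 and Cd86, Cd274 had all 3, Icosl had H3K4me3 and Pax5, and Pdcd1lg2 and Cd276 had none. Of the 3 T cell partners of these proteins, Cd28 had H3K27ac at a start, and Ctla4 and Cd40lg had no entry there.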

How the data were processed

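The members and the gene lists were chosen with earlier results of these data known. The authors aligned ChIP-seq reads to mm9. The submitters' processing notes name Bowtie 0.12.9 and MACS 1.4.2. The methods, which name another Bowtie release, describe keeping reads with up to 3 best positions and removing duplicates. The deposited H3K27ac and Pax5 lists give a score per peak, whose scale is not stated, and the H3K4me3 list deposited by the authors gives 25-bp bins without a value. Bins were joined across gaps of up to 100 bp. Peaks were assigned by an overlap of at least 1 bp with a gene body plus 20 kb, or with 1000 bp around the start of a coding transcript (GENCODE M1, mm9), using Python 3.11.15 and numpy 2.4.6. Sequences and motifs were read from the NCBIM37 (mm9) genome. Near-identical transcripts were searched with blastn 2.17.0, keeping at least 90% identity over 200 bp. The overlap and joining steps were tested on simulated data. Named genes were the 8 members, genes of the listed pathways and genes with a start in a window. Ckb, Setd8 and Cd247 and the peaks shown for a motif were chosen after their values were seen. Groups held 1 library each, so no test, interval or paired fit was made. The 3 inputs were not analysed here. Depth per sample was not given by the lists. Of the gene lists, 2 genes are not reported here.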

Additional observations from a re-analysis of the deposited data

How the results depend on the processing

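No paired analysis was possible because the 3 lists are of 3 different targets, with 1 library for every one. Of 62 alternative values, 54 stayed within 1.5 times the reported one. A wider start distance or window could only keep or raise a count, so part of this tally was fixed in advance. The limit also passes a fall from 6 to 4 genes with all 3 lists. With the higher-scoring 50% of the lists, 3 genes kept Pax5 at a start (Bach2, Pou2f1 and Pou2af1, against 23.2% of all genes) and 3 had all 3 lists (21.3%), H3K27ac peaks fell to 56, Pax5 peaks to 10, all 10 of which overlapped H3K27ac, and the median H3K27ac density to 3.46 per 100 kb, where that of all genes was 2.06. Cd80 then had no H3K27ac at a start, and Cd40 and Cd86 had no Pax5 peak. The core stood in 10 whole Pax5 peaks and, as GCGTGAC, in 1 middle. When the midpoint had to lie within 1000 bp, 5 genes had H3K4me3 at a start (51.7% of all genes) and 4 had all 3 (32.7%), because the wide regions of Bach2 and Pou2af1 are centred further downstream. When only first starts counted, Mef2c dropped out of every count. Without peaks at another gene's start only, 112 H3K27ac and 27 Pax5 peaks were left. That alternative was chosen after seeing the data, and it kept peaks shared with the gene's own start, such as those at Pou2f1. Of 120 counts per gene, 35 moved by more than 1.5 times.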
